A study of Mus musculus with 29 samples.

Results

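The expression of 7 genes of the hypothalamic feeding circuit was followed in mice carrying mammary carcinoma cells. They were the peptide precursors Hcrt, Cartpt, Pnoc and Tac1, the neuropeptide Y receptors Npy1r and Npy2r, and the insulin receptor Insr. The genes were picked by symbol in the platform annotation, which lists 8726 named genes on the 3 array prints used, and all 7 were found there on each print, at 8 spots per print. Each gene is represented by 1 accession, and only Tac1 is spotted at 2 places.

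The tumour group consisted of female Balb/c mice, 8 weeks old, given 100000 4T-1 cells subcutaneously in 100 µl PBS, and the PBS group of mice of the same strain, sex and age given 100 µl PBS. Both groups had free access to food, and hypothalami were taken 18, 72 or 192 h later. 4T-1 is a transplantable mouse mammary carcinoma line that grows in this strain. On every 2-colour array, hypothalamic RNA of the tumour group was hybridised against RNA of the PBS group, and a value below is the log2 ratio of tumour over PBS within an array unless a signal level is named. The 16 arrays used came from 9 biological replicates, 3 at each time. All replicates had total RNA except 72 h replicate 1 and 192 h replicate 1, which had poly(A) RNA and 1 array each. The other 7 replicates had 2 arrays with the dyes Cy3 and Cy5 exchanged. One print carried the 3 replicates of 18 h, replicates 3 and 4 of 72 h and replicate 4 of 192 h, and the others were on 2 further prints. How many animals gave RNA for a replicate is not stated, so a p-value reflects how far these samples varied, which may be technical.

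Neurons of the hypothalamus sense energy stores through circulating hormones such as insulin and leptin and pass the signal on through peptides that raise or lower food intake. Hcrt encodes the precursor of the orexins, made in lateral hypothalamic neurons that promote wakefulness and feeding. Cartpt encodes the CART peptide, which reduces food intake in rodents, and Pnoc the precursor of nociceptin, a peptide of the opioid family that stimulates feeding in rodents. Tac1 encodes the precursor of substance P and neurokinin A. Npy1r and Npy2r encode G protein-coupled receptors for neuropeptide Y. The Y1 receptor mediates much of its feeding action, and the Y2 receptor sits largely on nerve endings, where it limits release and also binds a form of the gut peptide PYY. Insr encodes the receptor tyrosine kinase for insulin, and insulin acting in the hypothalamus lowers food intake in rodents.

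None of the 7 genes passed the test at any time. In the linear model fitted with limma over all genes, 0 of 1462 genes at 18 h, 0 of 3807 at 72 h and 0 of 3318 at 192 h had a Benjamini-Hochberg adjusted p under 0.05 (0% each). The smallest adjusted p over all genes was 0.427, 0.487 and 0.614 at 18, 72 and 192 h. Unadjusted p-values under 0.05 were given to 90 genes at 18 h (6.16%), 208 at 72 h (5.46%) and 95 at 192 h (2.86%). The median standard error of a ratio was 0.17, 0.17 and 0.18 at the 3 times, on the log2 scale. The 95% intervals given below give the precision reached with 3 replicates. The arrays of a replicate with the dyes exchanged mostly did not correlate across genes, even after the dye effect of each probe was subtracted. Their r was 0.698 in 18 h replicate 3 and 0.284 in 72 h replicate 4. In all others it was below 0, down to -0.326 in 18 h replicate 4. Between replicates of the same time, r ran between -0.117 at 18 h and 0.191 at 72 h.

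How often each gene could be measured set how much could be said of it. A gene was tested at a time if all 3 replicates gave a ratio, which held for 4 of the 7 genes at 18 h, 4 at 72 h and 6 at 192 h. Tac1 and Npy2r gave a ratio in all 9 replicates, Insr in 8, Hcrt, Cartpt and Npy1r in 7, and Pnoc in 4. Pnoc gave a signal in Cy3 on 13 of 16 arrays and in Cy5 on 7, while its tumour channel and its PBS channel were each measured on 10. Npy1r was measured on 15 arrays in Cy3 and 11 in Cy5, and on 14 in the tumour channel and 12 in the PBS channel. Hcrt was measured on 16 in Cy3 and 12 in Cy5, and on 14 in each of the tumour and PBS channels. For Insr the gap was as wide by group as by dye, with 11 arrays in Cy3 and 15 in Cy5, and 11 in the tumour channel and 15 in the PBS channel. The share of spots with a usable ratio ran between 14.8% and 83.0% by array, and the 2 arrays of 18 h replicate 5 were the sparsest, at 21.9% and 14.8%.

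**Figure D1:**
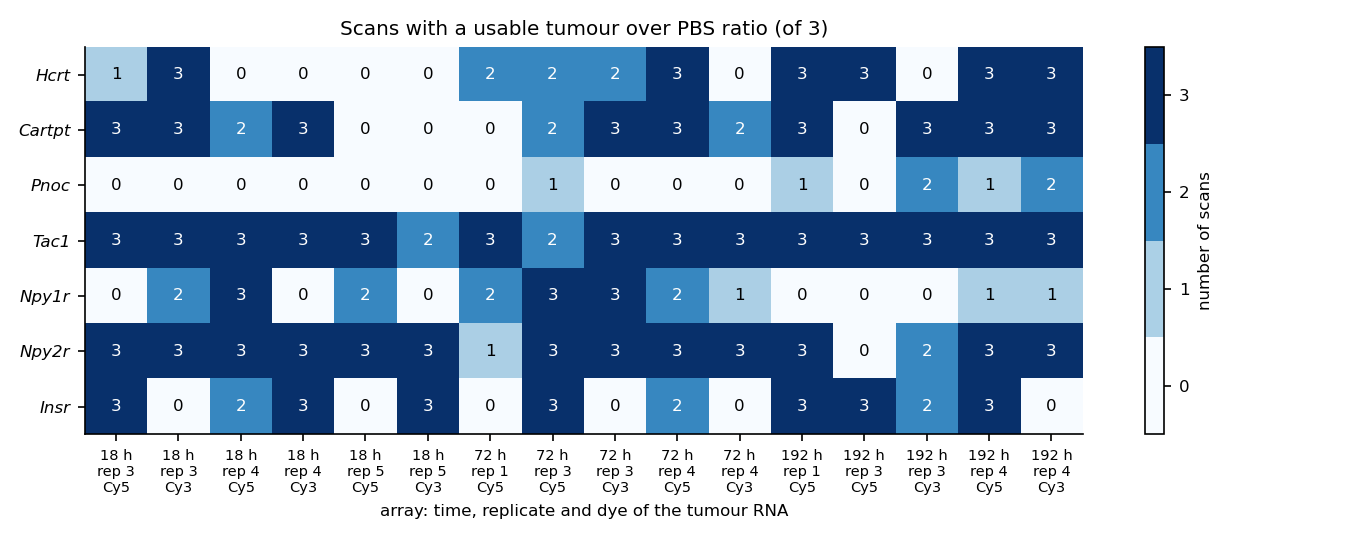
Number of scans, out of 3 per array, that gave a usable tumour over PBS ratio for each gene (rows) on each of the 16 arrays (columns, named by time, replicate and dye of the tumour RNA). Tac1 was measured on all 16 arrays, Npy2r on 15, and Pnoc on 5, none of them at 18 h.

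Hcrt, the orexin precursor, had ratios on both sides of 0. At 192 h its log2 ratio was 0.32, 0.62 and -0.04 in replicates 1, 3 and 4, a mean of 0.30 ± 0.33 (SD, n = 3; 1.23-fold). The limma fit gave p = 0.121 and adjusted p = 1. At 72 h it was -0.35, -0.02 and 0.24 in replicates 1, 3 and 4, a mean of -0.04 ± 0.30 (adjusted p = 0.992). At 18 h only replicate 3 gave a ratio, of -0.23. The replicates of 72 and 192 h overlapped, and the difference of 192 h minus 72 h was 0.34 (limma p = 0.200, adjusted p = 0.999; 95% interval -0.21 to 0.90).

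The 192 h value of Hcrt moved with single replicates. It was 0.14 without replicate 3 and 0.56 without replicate 4 (limma p = 0.029, unadjusted). Leaving out replicate 4, which had both dye orientations, also changed the dye effect subtracted from the others. In replicate 3 the Hcrt value rested on 1 dye. Hcrt was partly saturated in all 3 scans of the array with tumour RNA in Cy3, and these scans were left out. With saturated spots kept, that array read -0.14, replicate 3 averaged 0.16 in place of 0.62, and the mean at 192 h was 0.10 (limma p = 0.533). The same was true of 72 h replicate 4, whose Cy3 array then read -0.22 and whose mean was -0.06 in place of 0.24. Median centring in place of loess gave 0.66 at 192 h (limma p = 0.018).

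Cartpt, the CART precursor, was above 0 in 5 of 7 replicates. At 192 h its ratio was 0.54, 0.36 and -0.01 in replicates 1, 3 and 4, a mean of 0.30 ± 0.28 (1.23-fold; limma p = 0.101, adjusted p = 1). At 18 h it was 0.43 and 0.19 in replicates 3 and 4, and replicate 5 gave none. At 72 h it was 0.04 and -0.32 in replicates 3 and 4. Neither time was tested, since a replicate was missing at each. In 18 h replicate 3 both dye orientations were above 0, at 0.38 and 0.47. The mean of that replicate was 0.0029 with median centring in place of loess and -0.04 with loess within print blocks. In 72 h replicate 4 both orientations were below 0, at -0.34 and -0.31. Its mean under these settings was -0.44 and -0.135. Loess within print blocks gave a mean of 0.16 at 192 h. The higher values at 192 h came from arrays of 1 orientation, and replicate 4, the only one with both, was at -0.01. With total RNA only, that is without replicate 1, the mean at 192 h was 0.18, and without replicate 4 it was 0.45.

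Pnoc, the nociceptin precursor, was the peptide gene measured least often. No array of 18 h had a signal in both channels, with Cy3 measured on 4 of 6 arrays and Cy5 on 1. At 192 h its ratio was 0.49, -0.02 and 0.30 in replicates 1, 3 and 4, a mean of 0.26 ± 0.26 (limma p = 0.169, adjusted p = 1), and at 72 h it was 0.38 in replicate 3 alone. Its dye effect, Cy5 over Cy3, was -0.55 and came from 1 replicate, so the ratios of the other replicates carry the error of that estimate. Without the dye correction the 3 values at 192 h were -0.06, 0.53 and 0.30, and with loess within print blocks their mean was 0.03.

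Tac1, the tachykinin precursor, had the fullest record of the peptides. Its ratio was 0.02, 0.23 and 0.43 in replicates 3, 4 and 5 at 18 h, all above 0, with a mean of 0.22 ± 0.21 (1.17-fold; limma p = 0.172, adjusted p = 0.778). At 72 h it was 0.24, -0.15 and -0.21 in replicates 1, 3 and 4, a mean of -0.04 ± 0.25 (adjusted p = 0.992). At 192 h it was 0.41, 0.20 and 0.02 in replicates 1, 3 and 4, again all above 0, with a mean of 0.21 ± 0.19 (limma p = 0.196, adjusted p = 1). All 3 replicates were above 0 in 6.29% of the genes tested at 18 h and in 11.8% at 192 h.

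Over all 9 replicates Tac1 averaged 0.13 ± 0.23 (limma p = 0.163, adjusted p = 0.974; 95% interval -0.06 to 0.33), above 0 in 7 of 9. An exact two-sided sign-flip permutation test of these 9 values gave p = 0.102, where the smallest p that 9 values allow is 0.0039. In this contrast 0 of 738 genes had an adjusted p under 0.05 (0%) and 23 an unadjusted one (3.12%). The replicates of the 3 times overlapped, and the differences between times were -0.26 for 72 h minus 18 h, -0.01 for 192 h minus 18 h and 0.25 for 192 h minus 72 h.

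The 2 Tac1 spots did not give the same answer. On the 10 arrays where both gave a ratio, they differed in sign on 7, by a median of 0.51 and at most 1.71 on the log2 scale. That largest gap was on the Cy5 array of 18 h replicate 3, where the lower-numbered spot read 0.88 and the other -0.83, although their mean, 0.03, lay near 0. With the lower-numbered spot alone the mean at 18 h was 0.46 over 2 replicates and at 192 h 0.43, and with the higher-numbered spot alone it was 0.01 and 0.06. The higher-numbered spot was the brighter one on 8 of the 10 arrays, by a median of 0.67 on the log2 scale. Which spot of one print corresponds to which of another is not settled, so the spots with a ratio on an array were averaged. Where only 1 spot gave a ratio, it stood alone. The 0.43 of 18 h replicate 5 and the 0.24 of 72 h replicate 1 rest on the higher-numbered spot alone. With loess within print blocks the Tac1 mean was 0.13 at 18 h and 0.05 at 192 h. In that setting 1 replicate of 18 h and 1 of 192 h were below 0. At 72 h replicates 1 and 3 then were, at -0.05 and -0.11.

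**Figure D2:**
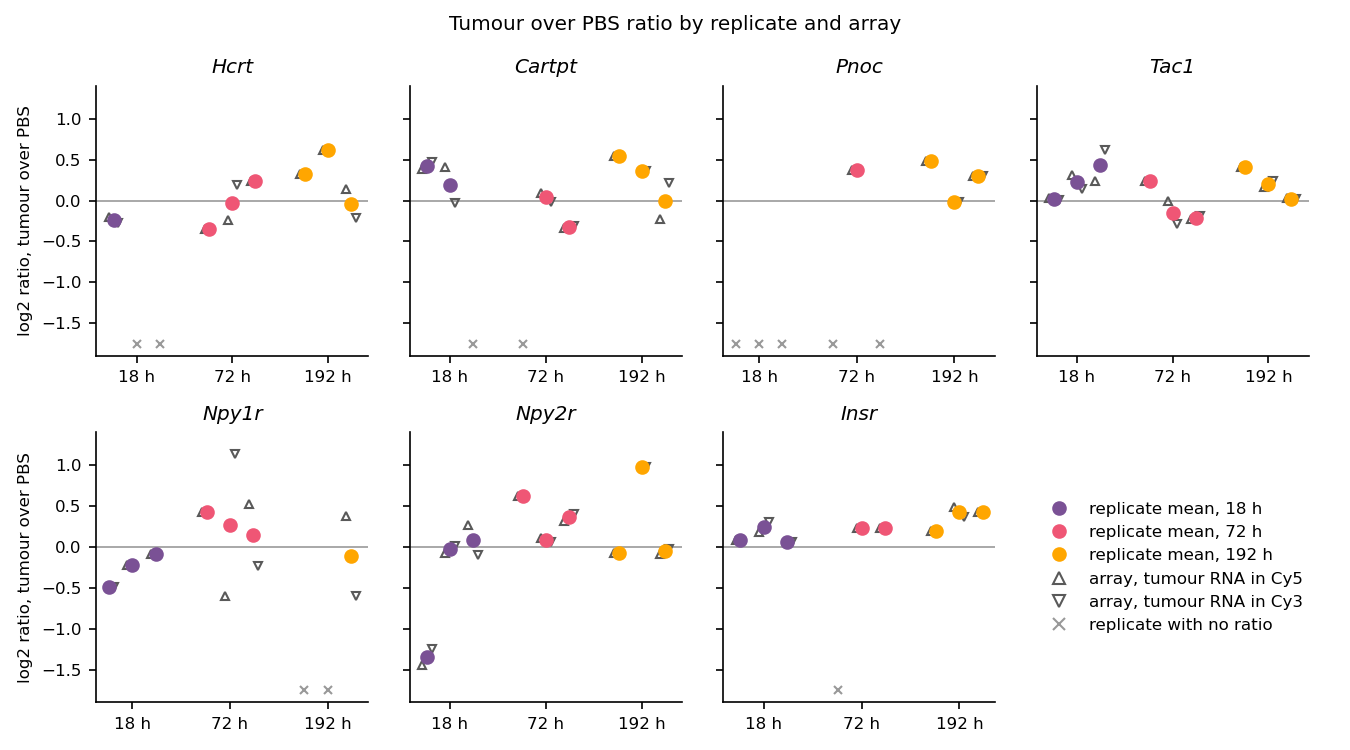
Log2 tumour over PBS ratio of each gene at 18, 72 and 192 h; filled circles are replicates, open triangles their arrays by dye orientation, and crosses replicates with no ratio. Insr lay above 0 in all 8 replicates measured, Npy1r below 0 in 3 of 3 at 18 h and above 0 in 3 of 3 at 72 h, and Npy2r reached -1.34 in 18 h replicate 3.

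Npy1r, the Y1 receptor, was below 0 in every replicate of 18 h and above 0 in every replicate of 72 h. Its ratio was -0.49, -0.22 and -0.08 in replicates 3, 4 and 5 at 18 h, a mean of -0.26 ± 0.21 (0.83-fold; limma p = 0.116, adjusted p = 0.778). At 72 h it was 0.42, 0.27 and 0.15 in replicates 1, 3 and 4, a mean of 0.28 ± 0.14 (1.21-fold; limma p = 0.097, adjusted p = 0.951). At 192 h only replicate 4 gave a ratio, of -0.12. All 3 replicates were below 0 in 19.5% of the genes tested at 18 h, where the median of all genes was -0.09, and above 0 in 14.8% at 72 h.

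The replicates of the 2 times did not overlap, as was so in this direction for 107 of the 1008 genes compared (10.6%), and the difference of 72 h minus 18 h was 0.54 (1.46-fold; limma p = 0.030, adjusted p = 0.838; 95% interval 0.06 to 1.02). In that contrast 0 of 1008 genes passed the adjusted threshold (0%) and 54 the unadjusted one (5.36%), and Npy1r ranked 28 by p-value. Over all genes the median difference between these times was 0.12.

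The Npy1r values depended on the dyes. Its dye effect was -0.71, from 3 replicates, against a standard deviation of 0.30 over the 7928 probes with an estimate. In 72 h replicate 3 the Cy5 array read -0.60 and the Cy3 array 1.13 after that correction, and in 72 h replicate 4 they read 0.53 and -0.23, so neither replicate had 2 arrays of the same sign. At 18 h no replicate had both orientations, and without the dye correction the replicates read 0.22, -0.93 and -0.79. At 72 h replicate 1 then read -0.29, and the mean was 0.04. Without replicate 3 the mean at 72 h was 0.07, without replicate 4 it was 0.44, and without 18 h replicate 3 the mean at 18 h was -0.15. A replicate left out was also left out of the dye effect. The 2 values at 72 h thus hold a changed correction of the replicates kept, as well as the loss of 1. Loess within print blocks gave 0.03 at 18 h and 0.33 at 72 h, a difference of 0.30 (limma p = 0.218). At 72 h, scan 2 alone gave 1.07 and scan 3 alone 0.13.

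Npy2r, the Y2 receptor, was measured in all replicates, and 2 of them stood apart. At 18 h its ratio was -1.34, -0.03 and 0.09 in replicates 3, 4 and 5, a mean of -0.43 ± 0.80 (0.74-fold; limma p = 0.133, adjusted p = 0.778). At 192 h it was -0.07, 0.97 and -0.05 in replicates 1, 3 and 4, a mean of 0.28 ± 0.60 (limma p = 0.307, adjusted p = 1). At 72 h it was 0.63, 0.08 and 0.36 in replicates 1, 3 and 4, all above 0, with a mean of 0.36 ± 0.27 (1.28-fold; limma p = 0.203, adjusted p = 0.991).

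The low value of 18 h replicate 3 was seen in both dye orientations, at -1.44 with tumour RNA in Cy5 and -1.25 in Cy3, from 3 scans each. It corresponds to a 0.39-fold level in tumour hypothalamus. In that replicate 59 of 8181 genes (0.721%) had a ratio as low or lower, and the ratios of all genes spread more widely than in the other replicates, with a standard deviation of 0.57 against 0.30 to 0.44. With loess within print blocks the Npy2r ratio was -0.53 there and the standard deviation of all genes 0.37. The mean at 18 h was then -0.09, and it was 0.03 without this replicate. At 72 h loess within print blocks gave 0.13.

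The high value of 192 h replicate 3 came from the Cy3 array alone, since Cy5 gave no signal on the other. It was 1.96-fold, was exceeded by few genes (99.1% were as low or lower), and was 0.44 with loess within print blocks. Without it the mean at 192 h was -0.06. The differences between times were 0.78 for 72 h minus 18 h (limma p = 0.058, adjusted p = 0.838) and 0.71 for 192 h minus 18 h (limma p = 0.082, adjusted p = 0.931). Without 18 h replicate 3 they were 0.32 and 0.25. Over all 9 replicates the mean was 0.07 ± 0.64, above 0 in 5 of 9 (limma p = 0.651, adjusted p = 0.974; exact sign-flip permutation p = 0.738).

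Insr, the insulin receptor, was the only one of the 7 genes above 0 in every replicate measured, 8 of 8 (6 of 8 with loess within print blocks). That tally covers arrays with a signal in both channels, and the same tally was not made over all genes. Of the 6 arrays without an Insr ratio, 5 had a signal in the PBS channel only and 1 in the tumour channel only. At 192 h its ratio was 0.20, 0.43 and 0.43 in replicates 1, 3 and 4, a mean of 0.35 ± 0.13 (SD, n = 3; 1.28-fold, 95% interval 1.03 to 1.58). The limma fit gave p = 0.027 and adjusted p = 1. Insr ranked 45 of 3318 genes by p-value, and was the only one of the 6 tested at 192 h with an unadjusted p under 0.05. At 18 h the ratio was 0.09, 0.24 and 0.06 in replicates 3, 4 and 5, a mean of 0.13 ± 0.10 (limma p = 0.371, adjusted p = 0.852). At 72 h it was 0.24 and 0.23 in replicates 3 and 4. The difference of 192 h minus 18 h was 0.22 (limma p = 0.285, adjusted p = 0.931; 95% interval -0.21 to 0.66), although the replicates overlapped only at 0.20 and 0.24. In that contrast 0 of 972 genes passed the adjusted threshold (0%) and 33 the unadjusted one (3.4%).

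Most of these Insr values rest on the dye correction. Only 18 h replicate 4 and 192 h replicate 3 had both orientations, with means of 0.24 and 0.43, and the dye effect of -0.34 was estimated from these 2 replicates and applied to the other 6, which had 1 orientation each. The 8 replicates are therefore not independent in sign. Before the correction, 5 of 10 arrays were above 0, namely 2 of the 7 with tumour RNA in Cy5 and all 3 with tumour RNA in Cy3, against 10 of 10 after it. Without the correction the mean at 192 h was 0.13 (limma p = 0.458). Loess within print blocks gave 0.20 at 192 h and 0.23 at 18 h, and put both replicates of 72 h below 0, at -0.07 and -0.0047. Scan 1 alone gave 0.63 at 192 h and scan 3 alone 0.20.

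In a fit chosen after the data were seen, which took genes with at least 2 replicates at every time, Insr averaged 0.24 over the 3 times (limma p = 0.019, adjusted p = 0.896) and ranked 62 of 3871 genes. Of these genes 0 passed the adjusted threshold (0%) and 191 the unadjusted one (4.93%). Tac1, Cartpt and Npy2r averaged 0.13, 0.15 and 0.07 in it, with adjusted p-values of 0.902, 0.902 and 0.951.

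**Figure D3:**
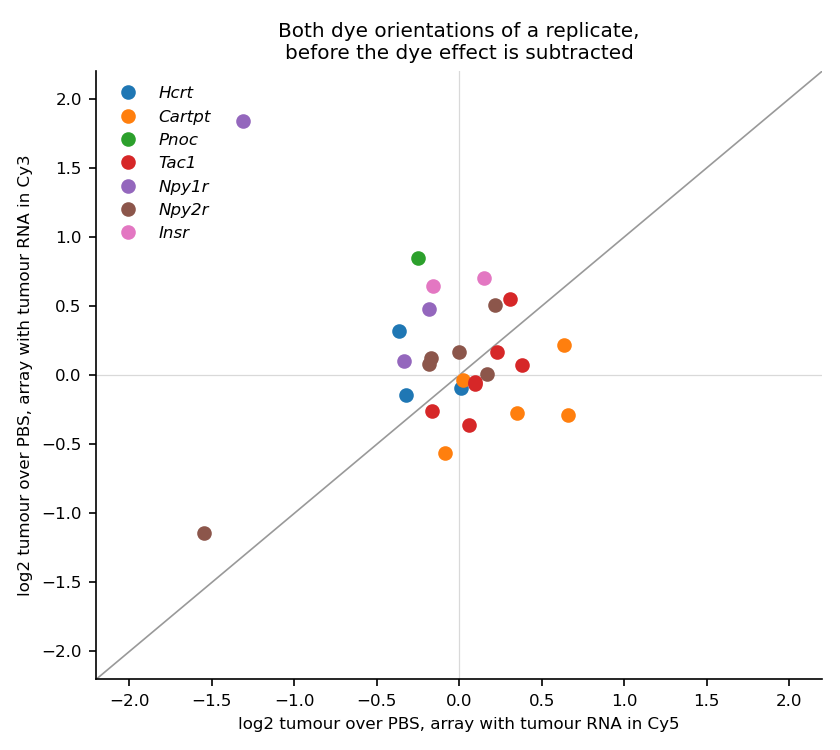
Log2 tumour over PBS ratio of each gene in the replicates that had both dye orientations, before the dye effect was subtracted, with the Cy5 tumour array on the x axis and the Cy3 tumour array on the y axis; the line marks equal values. The Npy1r point at -1.31 and 1.84 lies far from the line, and the Npy2r point at -1.54 and -1.14, from 18 h replicate 3, lies near it.

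The 6 genes tested at 192 h all had means above 0, between 0.21 and 0.35, with a median of 0.29, beside a median of -0.00 and 49.3% above 0 over all genes tested. With loess within print blocks the 6 means were between 0.03 and 0.21. With both dye orientations required, Hcrt, Cartpt and Npy2r were below 0, at -0.04, -0.01 and -0.05, each from replicate 4 alone. Pnoc, also from replicate 4 alone, was then at 0.30. Insr, from replicate 3 alone, was at 0.43, and Tac1, from replicates 3 and 4, at 0.11. Only Tac1 and Insr were above 0 in all 3 replicates, as were 11.8% of all genes tested, and none of the 6 passed the test. At 72 h the 4 means ran between -0.04 and 0.36, with a median of 0.12 beside 0.01 over all genes. Npy1r and Npy2r were above 0 in all 3 replicates at 72 h, as were 14.8% of all genes. None of the 4 was below 0 in all 3, where 12.2% of all genes were. At 18 h the 4 means ran between -0.43 and 0.22, with a median of -0.07 beside -0.09 over all genes. All 3 replicates of a gene were below 0 in 12.9% of the genes tested at 192 h, and none of the 6 was among them. The contrast of 192 h minus 72 h covered 3 of the genes, with 0 of 1907 genes past the adjusted threshold (0%) and 45 past the unadjusted one (2.36%).

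**Figure D4:**
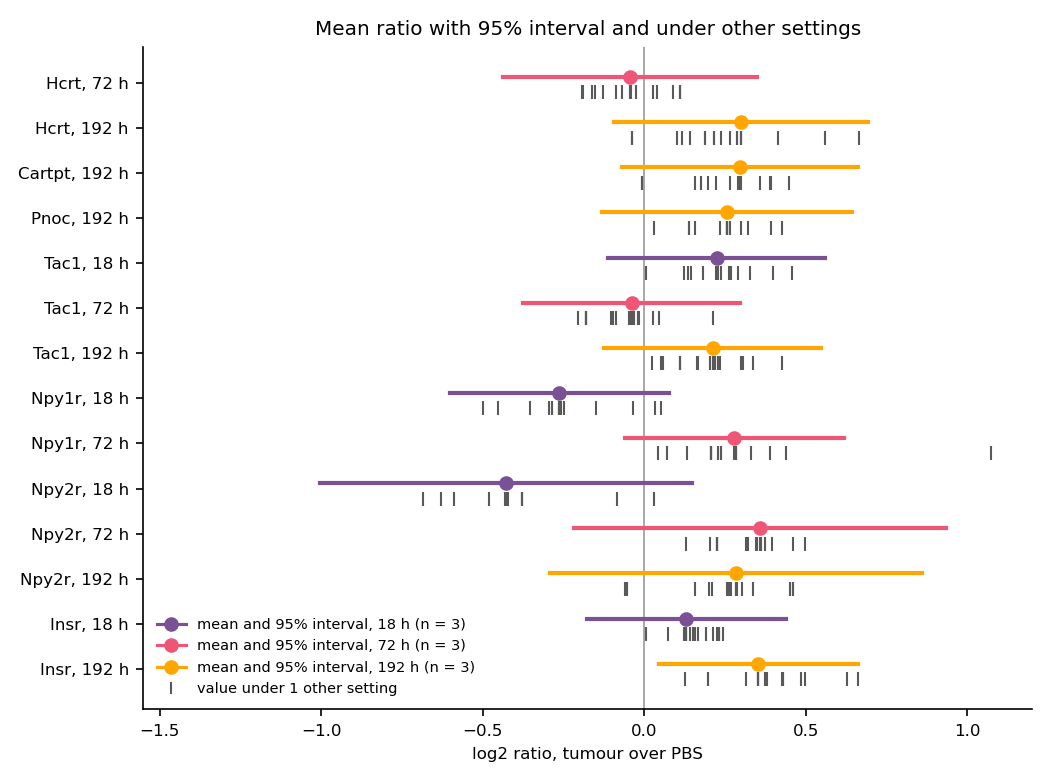
Mean log2 tumour over PBS ratio with its 95% interval (n = 3 replicates) for each gene and time that could be tested, and below it the value under each other setting tried on the log2 scale. All intervals except that of Insr at 192 h, 0.05 to 0.66, include 0, and single settings move several means across 0.

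The signal level of a probe was taken as log2 signal minus the median of the measured spots of the same channel and scan. Partly saturated spots were kept in this level, which was compared between times for each probe on its own. For Hcrt it was 3.15, 2.03 and 1.90 in the tumour channel and 2.82, 2.13 and 2.01 in the PBS channel at 192 h in replicates 1, 3 and 4. At 18 h it was -0.05, -0.02 and 0.38 in the tumour channel and 0.29, 0.40 and 0.00 in the PBS channel. The 2 times did not overlap in either channel, as was so in this direction for 6.52% of 8316 genes in the tumour channel and 4.31% of 8692 in the PBS channel. At 18 h, however, replicates 4 and 5 had Hcrt signal in Cy3 alone. On the print that held both times, the arrays with tumour RNA in Cy5 did not show that order clearly. The tumour channel read 0.79 in 192 h replicate 4 and 0.77 in 18 h replicate 3. The PBS channel read 1.01 in 192 h replicate 4 and 1.27 in 18 h replicate 3. The arrays of the same replicates with tumour RNA in Cy3 did show the order. At 192 h they read 3.02 in the tumour channel and 3.00 in the PBS channel, and at 18 h -0.87 and -0.70. The levels of these replicates given above are means of both arrays. At 72 h replicate 4 was high as well, at 2.32 in the tumour channel and 2.74 in the PBS channel. At that time replicate 3 was low, at -0.33 and -0.65. Hcrt was partly saturated in all 3 scans of the Cy3 tumour arrays of 72 h replicate 4 and 192 h replicate 3. It was also partly saturated in 2 scans of the Cy5 tumour array of 18 h replicate 3. Replicates differ in print, RNA kind and scan as well as in time, and the part of each in this level was not tested.

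For Pnoc the order of the times was the opposite. Its level at 18 h was 0.24 and 0.38 in the tumour channel and 0.25, -0.13 and 0.98 in the PBS channel. At 192 h it was -1.82, -0.65 and -0.02 in the tumour channel and -0.73, -1.74 and -0.21 in the PBS channel. As replicate means, all were below the 18 h values of the same channel. That was so for 12.4% of genes in the tumour channel and 6.91% in the PBS channel. Single arrays of 192 h replicate 4 broke this order. With tumour RNA in Cy3 its tumour channel read 0.53, above both 18 h values. With tumour RNA in Cy5 its PBS channel read -0.05, above the -0.13 of 18 h replicate 4. For Insr the tumour channel read 0.56, 0.30 and 0.63 at 18 h, above its -0.12, -1.15 and 0.27 at 192 h. Its single arrays overlapped, since with tumour RNA in Cy5 they read -0.02 in 18 h replicate 4 and 0.27 in 192 h replicate 4. The PBS channel of Insr overlapped between the 2 times. Levels of Cartpt, Tac1, Npy1r and Npy2r overlapped between 18 and 192 h in both channels. For Npy2r the level averaged 1.04 ± 0.80 in the tumour channel and 1.04 ± 0.68 in the PBS channel (SD, n = 9 each), and its signal was above local background in each channel on every array with a background value. For Cartpt the level averaged 0.60 ± 0.74 in the tumour channel (n = 9) and 0.65 ± 0.79 in the PBS channel (n = 8). For Tac1 it averaged 1.02 ± 0.76 in the tumour channel and 0.84 ± 0.69 in the PBS channel (n = 9 each). Npy1r averaged -0.19 ± 0.72 in the tumour channel and -0.24 ± 1.08 in the PBS channel, with a median signal of 0.98 and 1.17 times local background. Pnoc had a median signal of 0.94 times background in the tumour channel and 0.78 in the PBS channel, and Insr of 1.39 and 1.08. The ratios of Pnoc, Npy1r and Insr thus come from background-corrected signals about as strong as the background itself. Median signals of Hcrt, Cartpt and Tac1 were 1.85, 2.06 and 1.64 times background in the tumour channel. In the PBS channel they were 1.90, 2.56 and 2.26. The lowest on an array were 0.55, 0.52 and 0.50 in the PBS channel and 0.51, 0.65 and 0.62 in the tumour channel.

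**Figure D5:**
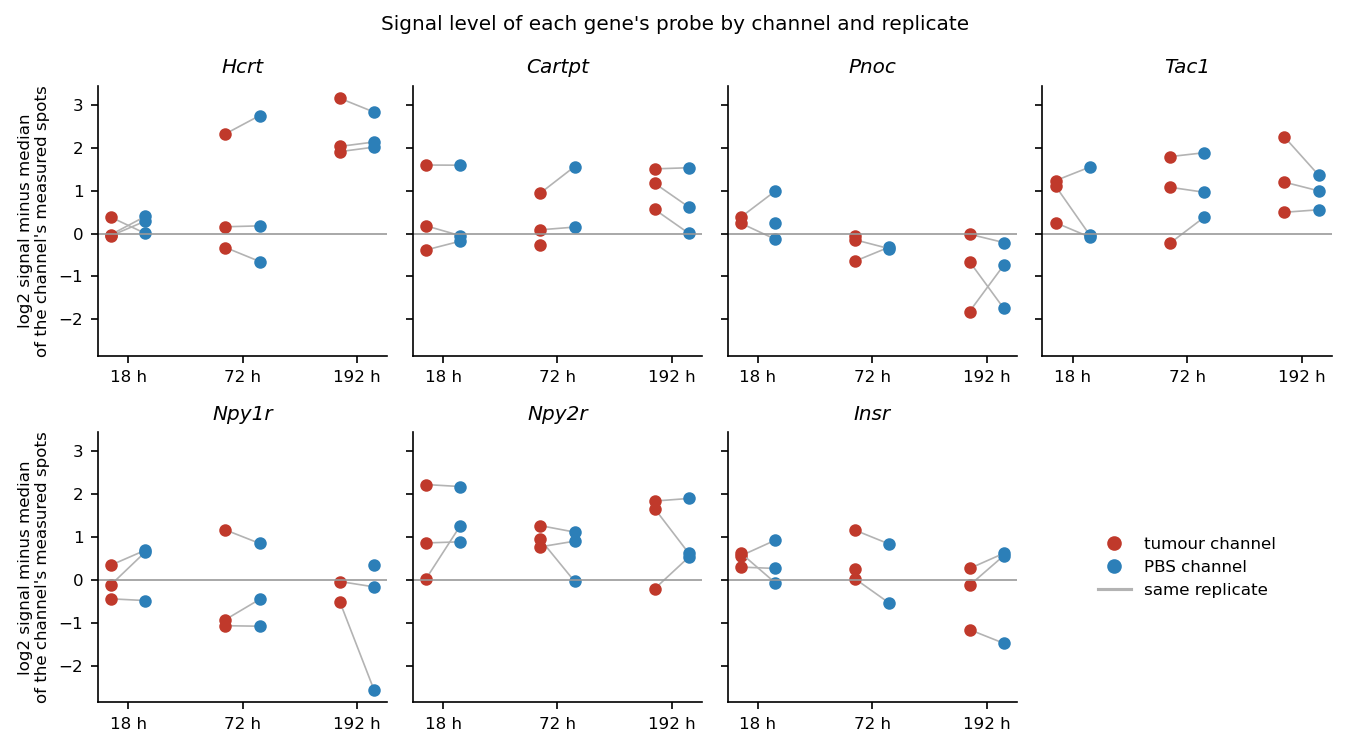
Signal level of each gene's probe in the tumour channel (left of each pair) and the PBS channel (right) at 18, 72 and 192 h, as log2 signal minus the median of the channel's measured spots; each point is a replicate and lines join the channels of 1 replicate. Both channels of Hcrt lie between 1.90 and 3.15 at 192 h and between -0.05 and 0.40 at 18 h.

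Other feeding genes were counted from lists chosen with earlier results of these data known. Of 10 feeding peptides tested at 192 h, the 4 above included, 8 were above 0 and 2 below, with a median of 0.23, and none had an unadjusted p under 0.05. Without the 4 precursors described here, 4 of 6 were above 0, with a median of 0.21. At 72 h 5 of 9 feeding peptides were above 0 and at 18 h 1 of 3. The galanin precursor Gal was at -0.15 ± 0.59 at 18 h, the urocortin precursor Ucn at 0.12 ± 0.05 at 72 h, and Nmu and Pmch, which encode neuromedin U and melanin-concentrating hormone, at 0.17 ± 0.09 and 0.15 ± 0.21 at 72 h.

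Among feeding peptide receptors other than Npy1r and Npy2r, 3 of 9 were above 0 at 18 h, 8 of 16 at 72 h and 2 of 9 at 192 h. Over all genes tested, 31.05% were above 0 at 18 h, 53.0% at 72 h and 49.3% at 192 h. The prokineticin receptor Prokr1 had the smallest p of the list, at 72 h, with -0.82 ± 0.17 (limma p = 7.06e-04, adjusted p = 0.487), and the apelin receptor Aplnr followed with -0.50 ± 0.41 (adjusted p = 0.804). The cholecystokinin B receptor Cckbr was at -0.33 ± 0.31 at 18 h, and the substance P receptor Tacr1 and the delta opioid receptor Oprd1 were at -0.21 ± 0.43 and -0.13 ± 0.12 at 192 h.

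Of the insulin and leptin signalling genes other than Insr, 0 of 3 were above 0 at 18 h, beside the 31.05% of all genes, 7 of 12 at 72 h and 7 of 17 at 192 h, with a median of -0.01 at 192 h. The adaptor Grb2 was at -0.50 ± 0.41 at 72 h (limma p = 0.035, adjusted p = 0.824), and the kinase Akt1 and the transcription factor Foxo3 were at 0.27 ± 0.12 and 0.20 ± 0.25. At 192 h Pik3r2, a regulatory subunit of phosphoinositide 3-kinase, was at 0.25 ± 0.22, and Prkab1, a subunit of AMP-activated protein kinase, at 0.29 ± 0.45. At 18 h Pik3ca and Prkag1, further subunits of the same enzymes, were at -0.20 ± 0.33 and -0.19 ± 0.64. None of these lists had a gene with an adjusted p under 0.05.

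Markers of the tissue were measured alongside. Of the 13 markers of hypothalamic identity on the arrays, only Oxt was tested at 18 h, with 0.09 ± 0.17, and at 72 h 5 of 8 were above 0. At 192 h 4 of 7 were above 0, with a median of 0.02. The 7 included Foxb1, a marker of the mammillary region, at 0.54 ± 0.37 (limma p = 0.0066, adjusted p = 1), Avp at 0.37 ± 0.31, and Gnrh1, below 0 in all 3 replicates, at -0.25 ± 0.16. At the same time 5 of 7 markers of neighbouring brain regions, Tac1 among them, 5 of 8 of neurons, 5 of 6 of oligodendrocytes and 4 of 5 of astrocytes were above 0, with medians of 0.06, 0.09, 0.16 and 0.06. Of markers of other sources at 192 h, 1 of 3 of microglia, 1 of 2 of the pituitary, 1 of 1 of endothelium, choroid plexus and ependyma and 0 of 1 of blood cells were above 0. Their part in the ratios of the feeding genes was not tested. In these pieces of tissue, fewer cells of a type and less RNA per cell cannot be told apart.

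The genes whose ratios ran most like those of a feeding gene over the replicates were found for the 3 with 8 or 9 values. For Npy2r they were Zfp219 (Pearson r = 0.98) and Ptx4 (0.98), out of 2011 genes compared, and the extremes of 18 h replicate 3 and 192 h replicate 3 weigh heavily in such a value. For Tac1 they were Lactb (0.92) and Aldh1b1 (0.85), and for Insr, out of 936 genes, Snn (0.89) and Wsb1 (0.88). Each rests on 8 replicates that share arrays and is given as a description.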

How the data were processed

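Scanner files of 16 in-house printed 2-colour oligonucleotide arrays (9 replicates, 3 scans an array) were used. The other 13 arrays of the series, on other prints, were not used here, because the choice of genes names these 3 prints. Per the file headers, the authors deposited spot intensities of 2 channels with local background intensities beside them, and a saturation factor, a fraction between 0 and 1. The column names call the intensities corrected for background. The authors' deposited value tables, treated as a score, give each spot's log ratio with base and centring unstated, and correlated with the ratios computed here at 0.403 to 0.876 across spots. Channel A was taken as Cy3 and channel B as Cy5. The labels do not state this order, and with the other order every sign would turn.

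The fits used limma 3.58.1 under R 4.3.3. For the ratios, spots not measured, not above 0 or partly saturated in a scan were left out. The signal levels kept partly saturated spots. Loess (span 0.3, 4 iterations) normalized each scan, scans were averaged, and the mean Cy5 over Cy3 ratio of each probe over the 7 replicates with both orientations was subtracted where it could be estimated. All ratios were then oriented as tumour over PBS, the arrays of a replicate were averaged, and the brightest accession stood for a gene. One model with a mean per time was fitted by lmFit and eBayes over 5438 genes (prior degrees of freedom 7.05), and tests were two-sided, at an adjusted p of 0.05. The script was tested on simulated ratios. The number of arrays limits the precision. Symbols come from the platform annotation, updated through gene records. The sequences of the printed oligonucleotides were not used here.

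The genes and lists were chosen with earlier results of these data known. Text names all 7 genes, up to 3 genes per list and time with the smallest p, and the 2 genes most like each gene with 8 or 9 values. Same-numbered replicates of different times are not said to share animals or days, and their deviations from the time means correlated at -0.08 to 0.18, so the numbers are not used as a pairing.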

Additional observations from a re-analysis of the deposited data

How the results depend on the processing

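Of 152 counts of genes recomputed under other settings, 151 were 0, as reported. The exception was the mean over all times without 192 h replicate 3, where 1 gene of 794 passed (Dbf4, 0.81, adjusted p = 0.0469, named after its value was seen), so that leaving out replicates gave 0 to 1. No value of the 7 genes passed the adjusted threshold in any of 513 recomputed values, and 41 changed sign. Normexp background gave Hcrt 0.038 at 72 h, and median centring 0.027. Median centring also gave Tac1 0.21 at 72 h and 0.011 for 192 h minus 18 h, and Npy2r -0.023 over all times. Loess within print blocks gave Npy1r 0.034 at 18 h, Insr -0.033 for 192 h minus 18 h and Npy2r 0.080 for 192 h minus 72 h. Without the dye correction, 192 h minus 18 h was 0.0099 for Tac1 and -0.0032 for Insr. Single scans gave Tac1 0.074 and 0.031 for 192 h minus 18 h (scans 1 and 2), and scan 3 gave Npy1r 0.053 at 18 h, Hcrt 0.089 at 72 h and Insr -0.014 for 192 h minus 18 h. The authors' value table, in its own log unit, gave Npy1r -0.12 at 72 h, and 0.0052 for Tac1 and -0.065 for Insr for 192 h minus 18 h. The print with all times alone, which leaves 1 replicate at 192 h assumed to vary like the others, gave Hcrt 0.11 at 72 h, -0.039 at 192 h and -0.15 for 192 h minus 72 h, Cartpt -0.0055 and Npy2r -0.052 at 192 h, and Npy2r -0.085 over all times. Total RNA alone gave Hcrt 0.11 at 72 h and Npy2r 0.24 for 192 h minus 72 h. Replicates with both dye orientations only gave at 192 h Hcrt -0.039, Cartpt -0.0055 and Npy2r -0.052. That setting, like the single Tac1 spots and the fit with at least 2 replicates a time, was chosen after seeing the data. Its values here are those of 192 h replicate 4 alone, as on the print with all times. Leaving out 1 replicate gave Npy2r -0.69 to 0.031 at 18 h, -0.060 to 0.46 at 192 h, -0.42 to 0.10 for 192 h minus 72 h and -0.043 to 0.22 over all times, Hcrt -0.19 to 0.11 at 72 h, Tac1 -0.18 to 0.045 at 72 h and -0.12 to 0.082 for 192 h minus 18 h. It kept the sign but moved Hcrt to 0.14 to 0.56, Cartpt to 0.18 to 0.45, Pnoc to 0.14 to 0.39, Tac1 to 0.11 to 0.31 and Insr to 0.31 to 0.43 at 192 h, Npy1r to 0.07 to 0.44 and Npy2r to 0.22 to 0.50 at 72 h, and Tac1 to 0.12 to 0.33, Npy1r to -0.35 to -0.15 and Insr to 0.07 to 0.17 at 18 h. The cause of these changes was not tested. Settings that left out replicates also estimated the dye effect from the replicates kept, so the ratios of those could move. Single scans, spots above background only and both orientations only gave no value for genes that then lacked a replicate.

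The replicate block changed no call. With the replicate number as a random block (correlation 0.101) Insr was 0.35 at 192 h (adjusted p = 0.999), and as a fixed block, possible only between times, Npy1r was 0.56 and Npy2r 1.06 for 72 h minus 18 h. Signals near background and missing dye orientations limit Pnoc, Npy1r and Insr most. Hcrt, Cartpt and Tac1 were also weaker than local background on some arrays. With only spots at or above background, Hcrt at 72 h and Tac1 at 18 h gave no value.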
